A study of Mus musculus with 12 samples.

Results

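Neural stem cells of the mouse hippocampus that had been carried to passage 10 with small extracellular vesicles shed by embryonic stem cells were compared with the same kind of cells carried to passage 10 with phosphate-buffered saline. The comparison holds 8 of the 12 libraries of the series, 4 in each group, chosen by passage and treatment, and it covers every gene. All 12 libraries come from wild type C57BL/6 cells grown in a medium with 2% B27, EGF at 20 ng/ml, bFGF at 20 ng/ml and heparin at 5 µg/ml, and both late groups were treated from passage 2 on. The P10 EV group received the vesicles, the P10 PBS group an equal volume of saline, and the P2 group was sampled at passage 2. The library names carry the same 4 culture codes in each group, so that P10 EV replicate 1 and P10 PBS replicate 1 have the same code, and likewise replicates 2, 3 and 4. Whether a code is an animal or a pool of animals is not in the labels, so the p-values measure only the spread between these samples. Poly(A) RNA was sequenced with paired ends and reads were counted per gene by the authors. Levels are given as CPM, the count of a gene scaled to the total of its library after adjustment by a TMM factor, and every fold change is P10 EV over P10 PBS on the log2 scale with its standard error (SE).

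Neural stem cells divide in culture and can form neurons, astrocytes and oligodendrocytes, and they share many transcripts with astrocytes, to which they are closely related. Small extracellular vesicles are membrane particles that cells release with proteins and RNA of the donor cell inside. The title of the study places 2 sets of genes between the vesicles and the age of the stem cells. The SMAD proteins carry signals of TGF-beta and BMP receptors to the nucleus, where they switch target genes on or off, among them genes whose products restrain the same pathway. Myt1 encodes a zinc finger transcription factor of the neuronal lineage, Egln3 a prolyl hydroxylase that marks hypoxia-inducible factors (HIF) for destruction and is itself induced by them, and Sirt1 an NAD-dependent protein deacetylase.

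The 8 late libraries held 10736538 to 16807647 counts, and within each culture code the P10 EV library was 1.08 to 1.12 times as deep as its P10 PBS partner. Of 34745 genes in the table, 15450 had enough counts to be tested. The stem cell genes Sox2 and Nes were expressed in all 8 libraries, at 179 to 217 CPM (P10 EV) and 184 to 238 CPM (P10 PBS) for Sox2. The summed level of 16 microglial genes was at most 5.92 CPM in P10 EV and 6.13 CPM in P10 PBS libraries, and 7 of them in P10 EV and 6 in P10 PBS had no read. Replicate 1 of both groups carried transcripts of the liver: Alb, which encodes serum albumin, had 17.2 CPM in P10 EV replicate 1 and 16.5 CPM in P10 PBS replicate 1, against no more than 0.145 CPM in any other late library. All 25 liver genes had at least 1 read in each group, and their summed level ranged over 23.7 to 111 CPM in P10 EV and 32.5 to 139 CPM in P10 PBS libraries. The highest sum was that of replicate 1 in each group. In replicates 2 to 4 most of the sum was Trf, which encodes transferrin. Trf had 22.4 to 32.1 CPM in these P10 EV and 31.8 to 80.8 CPM in these P10 PBS libraries. Fga, Serpina3k and Mup3 had no read in any of them. Some results are therefore also given without replicate 1, among them those of the called genes, the astrocyte list and the count of blocked calls. Xist marked replicates 1 and 2 in both groups, so that the code of a replicate and the sex of its cells matched between P10 EV and P10 PBS. On the first principal component of the 8 libraries (31.0% of the variance) the groups overlapped, with P10 EV libraries between -40.5 and 3.90 and P10 PBS libraries between -6.41 and 46.9. A lower level of a transcript in such bulk RNA cannot be told apart from fewer cells that make it.

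Only 2 genes passed the test of edgeR at an adjusted p under 0.05, which is 0.0129% of the 15450 tested: Ldlrad4 rose (0.00647%) and Cacng5 fell (0.00647%) in P10 EV cells. Ldlrad4 (ENSMUSG00000024544; chromosome 18, 67933257 to 68255549) encodes a membrane protein that, in human cells, binds receptor-activated SMADs and restrains TGF-beta signalling. It had 15.2, 16.0, 22.4 and 18.4 CPM in P10 EV replicates 1 to 4, against 4.57, 4.39, 6.91 and 5.72 CPM in P10 PBS replicates 1 to 4. Every P10 EV library lay above every P10 PBS library, and the P10 PBS libraries lay near those at P2 (5.38 ± 2.45 CPM, SD, n = 4). The mean was 18 ± 3.24 CPM in P10 EV and 5.4 ± 1.16 CPM in P10 PBS cells (SD, n = 4 each), a log2 fold change of 1.74 ± 0.20 (SE, adjusted p = 0.0423). The ratio was much the same in each culture, with log2 values of 1.63, 1.75, 1.63 and 1.60 for replicates 1 to 4.

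Cacng5 (ENSMUSG00000040373; chromosome 11, 107874605 to 107915055) encodes an auxiliary subunit of AMPA-type glutamate receptors. It had 3.72, 2.93, 4.36 and 3.07 CPM in P10 EV libraries, against 10.7, 14.5, 15.3 and 10.1 CPM in P10 PBS libraries. The highest P10 EV library was at less than the lowest P10 PBS library, whereas the 4 P2 libraries spread from 4.22 to 53.4 CPM. The fold change was -1.84 ± 0.21 (SE), with an adjusted p of 0.0423. Both calls were lost in each of the 4 fits that leave out a replicate number: in the fits without replicates 1 to 4 the adjusted p of Ldlrad4 was 0.132, 0.0782, 0.272 and 0.226, and that of Cacng5 was 0.132, 0.0828, 0.393 and 0.133. Without replicate 1, whose libraries hold liver transcripts, the fold changes were 1.74 for Ldlrad4 and -1.94 for Cacng5. Of the 8 fits that leave out 1 library, only the one without P10 PBS replicate 2 kept both calls, and their log2 values stayed between 1.62 and 1.87 for Ldlrad4 and between -1.95 and -1.73 for Cacng5 over these fits.

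Of the called genes, the promoter of Cacng5 is shown, from the RefSeq table of build GRCm38.p6, and that of Ldlrad4 was not used here. The promoter of Id3, which was not called by edgeR, is shown beside it as that of a target of BMP and SMAD signals described with its pathway. Each sequence runs from 250 bases before to 50 bases after the start, 5′ to 3′ on the strand of the gene, and capitals mark the letters CAGAC or, for the other strand, GTCTG, which form the core of a SMAD binding element. At least 1 match lies in 49.6% of the 32851 promoters of that table, so a match by itself sets neither gene apart. Cacng5, at chr11:107915006-107915305 on the minus strand, holds 2 copies of CAGAC and 1 of GTCTG, and Id3, at chr4:136143572-136143871 on the plus strand, holds 1 of each.
Cacng5: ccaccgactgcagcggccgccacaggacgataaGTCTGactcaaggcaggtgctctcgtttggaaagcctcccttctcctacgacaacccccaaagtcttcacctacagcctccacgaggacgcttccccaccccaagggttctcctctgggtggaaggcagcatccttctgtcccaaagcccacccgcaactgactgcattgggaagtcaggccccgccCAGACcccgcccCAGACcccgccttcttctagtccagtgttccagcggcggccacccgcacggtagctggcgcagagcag
Id3: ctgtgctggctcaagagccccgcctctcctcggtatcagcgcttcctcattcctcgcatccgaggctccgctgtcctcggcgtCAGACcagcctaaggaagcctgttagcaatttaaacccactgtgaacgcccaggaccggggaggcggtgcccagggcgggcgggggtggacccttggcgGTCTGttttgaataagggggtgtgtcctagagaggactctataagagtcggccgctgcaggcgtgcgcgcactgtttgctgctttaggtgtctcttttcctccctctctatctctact

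**Figure D1:**
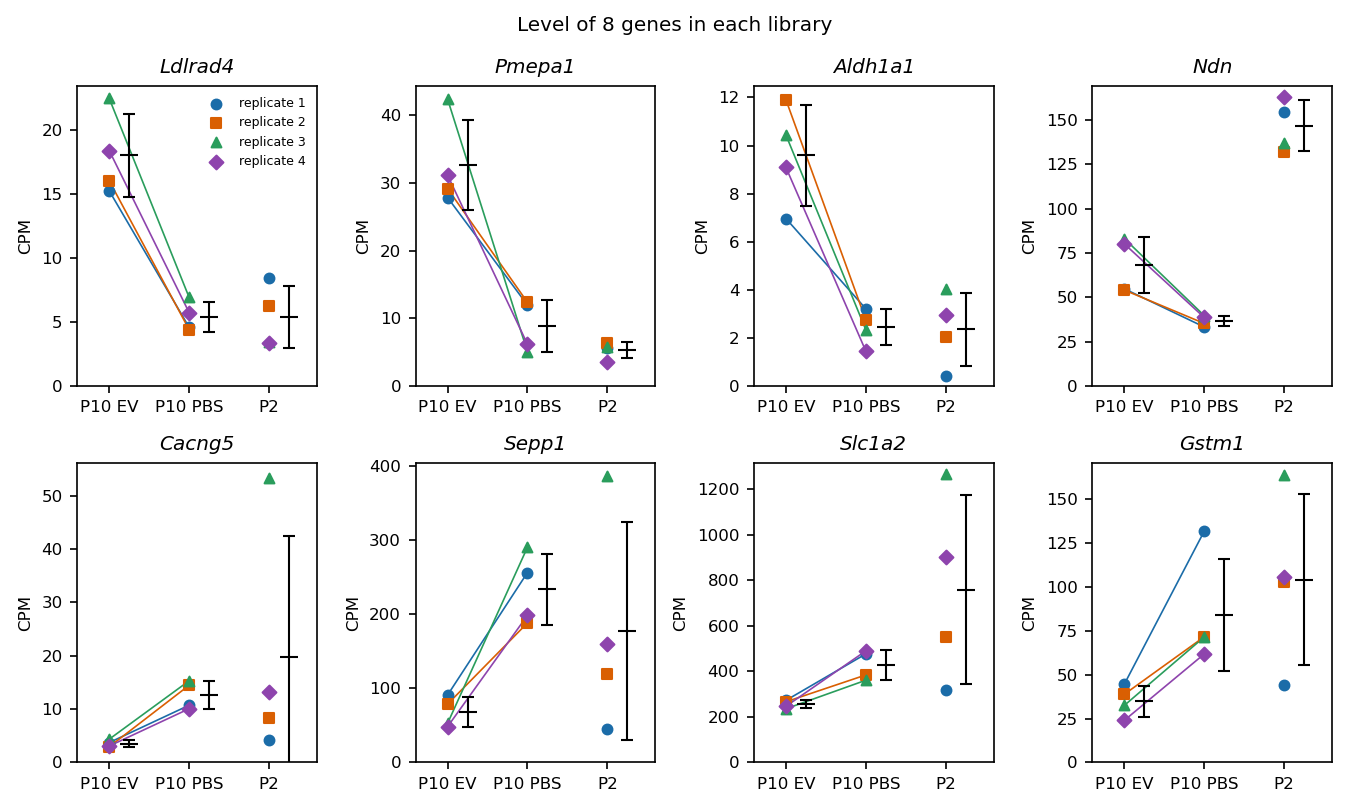
Level of 8 genes in CPM (vertical axis, from 0) in each library of P10 EV, P10 PBS and P2; symbols are replicates, lines join the late libraries of a culture code, and bars are mean ± SD of 4 libraries, those of Cacng5 at P2 being drawn only down to 0. Ldlrad4, Pmepa1, Aldh1a1 and Ndn are higher in each P10 EV library than in any P10 PBS library, and Cacng5, Sepp1, Slc1a2 and Gstm1 are lower. Pmepa1, Aldh1a1, Ndn, Sepp1 and Slc1a2 were picked for that separation.

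A fit that took the culture code as a block called 17 genes, 0.11% of those tested, of which 2 rose (0.0129%) and 15 fell (0.0971%) in P10 EV cells. Ldlrad4 and Cacng5 were among them, and the other gene that rose was Csmd3 (chromosome 15, 47580637 to 48792063), which encodes a large membrane protein of neural tissue. Csmd3 had 14.6, 12, 24.6 and 39.9 CPM in P10 EV and 6.28, 4.94, 8.68 and 11.3 CPM in P10 PBS libraries. The groups did not overlap, though P10 EV replicate 2 was close to P10 PBS replicate 4, and each culture was higher with vesicles (log2 of 1.47 ± 0.15, adjusted p = 0.0407 with the block and 0.193 without it). At P2 it had 21.8 ± 4.61 CPM (SD, n = 4), a level close to the P10 EV mean of 22.8 ± 12.7 CPM (SD, n = 4).

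The genes that fell in the blocked fit include a secreted carrier, an enzyme of detoxification and a hormone precursor on the astrocyte list. Sepp1 (chromosome 15, 3268547 to 3280508), which encodes the selenium carrier selenoprotein P, had 91.0, 78.7, 52.9 and 48.3 CPM in P10 EV libraries, against 256, 188, 291 and 199 CPM in P10 PBS libraries. No library of either group reached into the range of the other, a separation for which Sepp1 was also picked. The fold change was -1.81 ± 0.20 (SE) with an adjusted p of 0.0407 in the blocked fit, against 0.0679 without the block. Gstm1 (chromosome 3, 108012255 to 108017973), a glutathione transferase, had 44.6, 38.8, 32.5 and 23.9 CPM in P10 EV libraries, against 132, 71.6, 71.5 and 61.8 CPM in P10 PBS libraries. Its culture ratios, from -1.55 to -0.87, were all negative, with an adjusted p of 0.0407 in the blocked fit and 0.166 without the block. Agt (chromosome 8, 124556534 to 124569706), which encodes angiotensinogen, had 5.55, 4.11, 2.05 and 1.69 CPM in P10 EV libraries, against 17.3, 12.2, 8.49 and 5.79 CPM in P10 PBS libraries. In both groups Gstm1 and Agt were highest in replicate 1, whose libraries hold liver transcripts, and the part of these was not tested. Agt was lowest in replicate 4 in both groups, and its 4 culture ratios lay between -1.82 and -1.46 (adjusted p = 0.0407 with the block and 0.193 without it).

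Of the other falls with the block, Itm2c, a small membrane protein, had a mean of 120 ± 21.4 CPM in P10 EV and 232 ± 32.1 CPM in P10 PBS cells (SD, n = 4 each), with an adjusted p of 0.0407 in the blocked fit and 0.0879 without the block. Rapgef4, a cAMP-activated exchange factor for Rap proteins, had a mean of 19.5 ± 2.89 CPM in P10 EV and 42.8 ± 7.86 CPM in P10 PBS cells (SD, n = 4 each), with an adjusted p of 0.0426 in the blocked fit and 0.0869 without the block. Btbd17 and Abhd8 had blocked fold changes of -1.32 ± 0.12 and -1.0 ± 0.10 (SE), each with an adjusted p of 0.0407, against 0.162 without the block. The rest were Pygm (muscle glycogen phosphorylase), Sorcs2 (a receptor of the sortilin family), Rtn4rl1 (a relative of the Nogo receptor), Efhd1, AI464131, Olfr287 and E030030I06Rik, with blocked fold changes between -1.86 and -1.03. The blocked fit has 3 residual degrees of freedom, against 6 without the block. With the block, edgeR called 1 gene without replicate 1, none of the 17, and 44 genes without replicate 2, of which 13 were among the 17. It called 0 genes without replicate 3 (2334 at an unadjusted p under 0.05) and 0 without replicate 4 (1597 at an unadjusted p under 0.05).

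**Figure D2:**
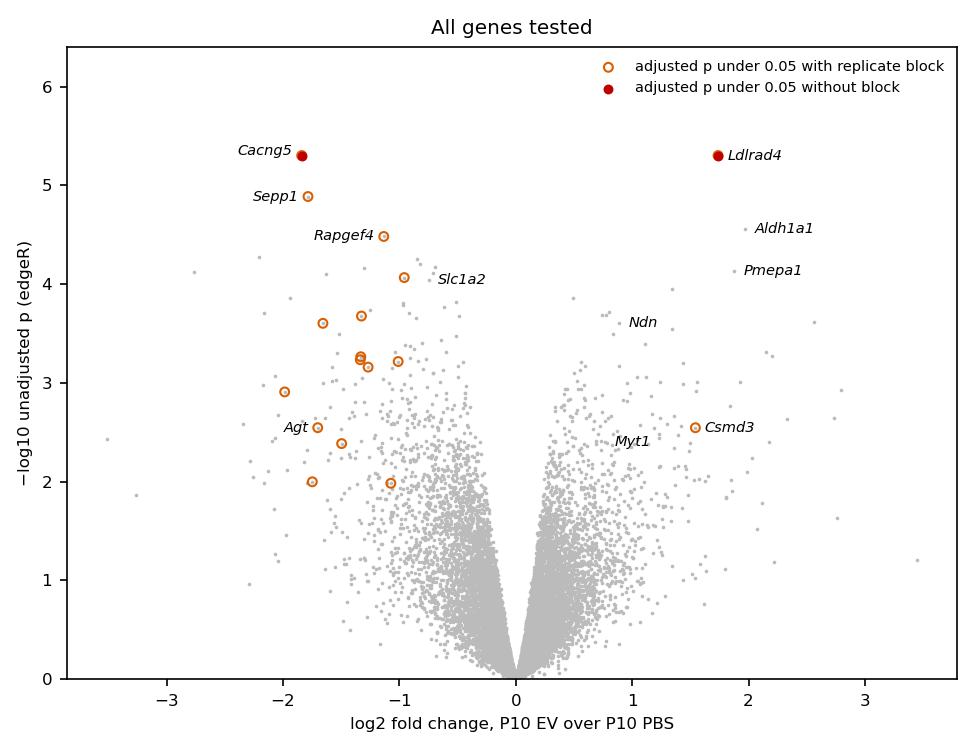
Log2 fold change of P10 EV over P10 PBS (horizontal axis) against the negative log10 of the unadjusted p of edgeR without a block (vertical axis) for 15450 genes, each a grey point. Filled red points passed at an adjusted p under 0.05 without the block (2 genes) and open orange circles with the culture code as a block (17 genes), 15 of which lie left of 0.

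Beyond these genes, looser measures gave larger counts, and how many genes would meet them without an effect of the vesicles was not tested. At an unadjusted p under 0.05 edgeR gave 1988 genes (12.9%), 852 higher (5.51%) and 1136 lower (7.35%) in P10 EV cells. The 4 libraries of the groups did not overlap for 1191 genes (7.71%), 597 higher (3.86%) and 594 lower (3.84%). All 4 cultures moved in 1 direction for 3779 genes (24.5%), 1857 higher (12%) and 1922 lower (12.4%) on the log2(CPM + 0.5) scale, and on a log2(FPKM + 1) scale for 4013 genes, 2594 higher and 1419 lower. A fold change of at least 1 on the log2 scale in either direction was found for 370 genes (2.39%). The Wald test of DESeq2 called 354 genes (2.29%), of which 121 were higher (0.783%) and 233 lower (1.51%) in P10 EV cells, and 15 of the 17 genes of the blocked fit were among them. The count of 2-fold ratios differed between cultures: among 11754 genes of at least 5 CPM, 148, 150, 190 and 268 were at least 2-fold higher and 319, 130, 215 and 343 at least 2-fold lower with vesicles in replicates 1 to 4. With a single library per group in each culture, these counts cannot separate a response from the spread between libraries.

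The genes with the smallest p among those whose groups did not overlap came next, and they were picked for that separation, which is thus no result about them. None of the genes in this paragraph and the next passed the test of edgeR without the block. Aldh1a1, which makes retinoic acid, had 6.96, 11.9, 10.4 and 9.09 CPM in P10 EV libraries, against 3.21, 2.75, 2.33 and 1.45 CPM in P10 PBS libraries (log2 of 1.97 ± 0.27, adjusted p = 0.0869). Pcgf2, a subunit of a polycomb complex, averaged 9.80 ± 2.43 CPM in P10 EV and 3.86 ± 0.601 CPM in P10 PBS cells (SD, n = 4 each, adjusted p = 0.102). Mfsd2a, a transporter of lysophosphatidylcholine lipids, averaged 86.5 ± 19.6 CPM in P10 EV and 34.0 ± 12.2 CPM in P10 PBS cells (SD, n = 4 each, adjusted p = 0.122). Myh10, a non-muscle myosin heavy chain, had a small and even difference, with 240 to 272 CPM in P10 EV against 173 to 192 CPM in P10 PBS libraries (adjusted p = 0.105). Lnx1, a ubiquitin ligase that targets Numb, Sncaip, which binds alpha-synuclein, Dock3, an activator of Rac, Gfod1 and Zfp488, a zinc finger protein of oligodendrocytes, had log2 values between 0.56 and 1.11 with adjusted p-values of 0.105 to 0.166.

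On the other side, Wls, the carrier that brings Wnt proteins to the cell surface, had 60.8, 79.0, 55.1 and 67.8 CPM in P10 EV libraries, against 118, 117, 132 and 105 CPM in P10 PBS libraries. The ranges left a wide gap, and the fold change was -0.84 ± 0.13 (SE, adjusted p = 0.0869). St6galnac5, a sialyltransferase of gangliosides, averaged 11.2 ± 1.69 CPM in P10 EV and 34.6 ± 12.8 CPM in P10 PBS cells (SD, n = 4 each, adjusted p = 0.0869). Clstn2, a synaptic calsyntenin, averaged 4.12 ± 0.940 CPM in P10 EV and 10.3 ± 1.31 CPM in P10 PBS cells (SD, n = 4 each, adjusted p = 0.0869). Ghitm, a protein of the inner mitochondrial membrane, Kank4, Ilvbl and Epdr1 had log2 values between -0.83 and -0.51, with adjusted p-values of 0.0869 to 0.105. Without P10 PBS replicate 2, edgeR called 64 genes, 15 higher and 49 lower, and the fits without any other single library called 0 or 1 gene.

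None of the 7 SMAD genes tested passed the test of edgeR, with 0 at an unadjusted p under 0.05 and 0 calls by DESeq2. Smad1 to Smad5, Smad7 and Smad9 had log2 values between -0.51 and 0.08 with adjusted p-values of 0.448 to 0.993, and for all 7 the libraries of the groups overlapped. Smad4, the shared partner of the others, had 122, 119, 111 and 117 CPM in P10 EV and 94.3, 128, 129 and 109 CPM in P10 PBS libraries. Smad3, a carrier of TGF-beta signals, averaged 83.7 ± 10.3 CPM in P10 EV and 94.5 ± 22.8 CPM in P10 PBS cells (SD, n = 4 each). Smad6, an inhibitory member, had 27 reads in all P10 EV and 16 reads in all P10 PBS libraries and was too low to test. The signs of Smad2, Smad3, Smad4 and Smad7 changed in fits without 1 library, and that of Smad5 without both libraries of replicate 2. These are transcript levels, and proteins brought in by vesicles would not appear in them.

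The receptors and the targets of the pathway were less uniform. Tgfbr2, the type II receptor for TGF-beta, had 4.90, 3.77, 6.58 and 2.95 CPM in P10 EV libraries, against 8.74, 8.42, 20.2 and 10.9 CPM in P10 PBS libraries. The groups did not overlap, and the fold change of -1.40 ± 0.34 (SE) had an adjusted p of 0.186. The BMP receptor Bmpr1b (57.8 ± 3.51 CPM in P10 EV and 77.0 ± 9.03 CPM in P10 PBS cells, SD, n = 4 each) and the activin receptor Acvr1b also lay lower in each culture, with adjusted p-values of 0.193 and 0.427. Over the 19 SMADs, receptors and their anchors, 12 log2 values were above 0 and 7 below, with a median of 0.05 against 0.01 over all genes tested. By edgeR none of them passed, with 2 lower at an unadjusted p under 0.05 (7.35% of all genes), and by DESeq2 Bmpr1b and Tgfbr2 were lower (1.51% of all genes).

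Pmepa1, a target of TGF-beta that restrains the pathway in human cells as Ldlrad4 does, and a member of the same family, had 27.9, 29.2, 42.4 and 31.2 CPM in P10 EV libraries, against 11.9, 12.4, 5.04 and 6.16 CPM in P10 PBS libraries. The lowest P10 EV library was above the highest P10 PBS library, but Pmepa1 was picked for that separation, which is thus no result. The P2 libraries (5.29 ± 1.21 CPM, SD, n = 4) were lower than all P10 EV libraries. The fold change of 1.87 ± 0.29 (SE) had an adjusted p of 0.0869 in edgeR, and it ranged from 1.47 to 2.19 over all settings. Id3, an inhibitor of basic helix-loop-helix factors and a target of BMP signals whose promoter is printed above, had 24.1, 21.1, 21 and 22.6 CPM in P10 EV libraries, against 62.2, 34.3, 32.1 and 33.2 CPM in P10 PBS libraries. It thus lay lower in each culture, most so in replicate 1 (log2 of -0.87 ± 0.21, adjusted p = 0.186). Tgfb2, a ligand, averaged 32.1 ± 4.38 CPM in P10 EV and 45.3 ± 11.8 CPM in P10 PBS cells (SD, n = 4 each, adjusted p = 0.306). Of 29 feedback genes, ligands and targets tested, 12 were above 0 and 17 below with a median of -0.16, which was -0.03 when P10 PBS replicate 1 was left out, -0.27 without P10 PBS replicate 2, -0.26 without replicate 3, -0.03 without replicate 4 and -0.02 in limma-trend. None passed edgeR, and 7 had an unadjusted p under 0.05 (12.9% of all genes). DESeq2 called Pmepa1 higher and Id3 lower, against 0.783% higher and 1.51% lower of all genes.

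Of the other genes in the title, Myt1 was higher with vesicles in each culture, though barely so in replicate 2, and did not pass the test. It had 84.8, 87.4, 113 and 118 CPM in P10 EV libraries, against 42.0, 84.8, 55.7 and 54.5 CPM in P10 PBS libraries and 144 ± 46.2 CPM at P2 (SD, n = 4). P10 EV replicate 1 and P10 PBS replicate 2 were level at the border of the groups, and within the cultures the log2 ratio was 1.01, 0.04, 1.01 and 1.10, so that replicate 2 hardly differed. The fold change was 0.77 ± 0.21 (SE), with an adjusted p of 0.222, or 0.141 with the block. It passed in the DESeq2 test of all 8 libraries (adjusted p = 0.0317). In edgeR it passed without P10 PBS replicate 2 (adjusted p = 0.0495) and, with the block, without replicate 2 (adjusted p = 0.0279), and over all settings the log2 value lay between 0.63 and 1.05 and the adjusted p between 0.0278 and 0.569.

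Egln3 had 33.2, 36.0, 52.2 and 33.5 CPM in P10 EV libraries, against 43.9, 20.5, 79.7 and 113 CPM in P10 PBS libraries. The P10 PBS libraries enclosed the whole range of the P10 EV libraries, and the culture ratios were -0.40, 0.80, -0.61 and -1.74. The fold change of -0.73 ± 0.42 (SE) had an adjusted p of 0.484. It was -1.03 when P10 PBS replicate 2 was dropped and -0.31 when P10 PBS replicate 4 was. Without both libraries of replicate 4 it was -0.25, or -0.09 with the block, and the adjusted p was at least 0.164 in every setting. Sirt1 had 23.4, 32.6, 25.9 and 42.1 CPM in P10 EV libraries, against 25.3, 36.1, 29.7 and 28.6 CPM in P10 PBS libraries. It was lower with vesicles in 3 cultures and higher in replicate 4, with a fold change of 0.05 ± 0.19 (SE) and an adjusted p of 0.932, and its sign turned without P10 EV replicate 4, without P10 PBS replicate 1 and without both libraries of replicate 4.

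Transcripts of astrocytes lay almost all to 1 side. Of 27 tested, 26 had a log2 value below 0, the median was -0.54 against 0.01 over all genes tested, and 15 were lower in all 4 cultures against 12.4% of all genes. The groups did not overlap for 8 of them, all lower in P10 EV cells, against 3.84% of all genes. EdgeR called none without the block and 1, Agt, with it, and 16 were lower at an unadjusted p under 0.05, against 7.35% of all genes. DESeq2 called 6 lower, against 1.51% of all genes (Agt, Fgfr3, Glul, Id3, S100b and Slc1a2). The list's summed level was 4550 to 5621 CPM in P10 EV libraries and 6059 to 9520 CPM in P10 PBS libraries, without overlap, and none of its 28 genes was at 0 in either group. The median over the list in each culture was -0.82, -0.29, -0.26 and -0.68 for replicates 1 to 4. Without replicate 1 the median was -0.46, and over all settings it lay between -0.64 and -0.39.

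Uptake and recycling of glutamate, a main task of astrocytes, was among the functions of these genes. Slc1a2, a glutamate transporter, had 273, 266, 236 and 247 CPM in P10 EV libraries, against 477, 384, 361 and 490 CPM in P10 PBS libraries. The P10 EV libraries lay close together and under all P10 PBS libraries, a separation for which Slc1a2 was picked. The P2 libraries spread over 318 to 1267 CPM. The fold change was -0.75 ± 0.12 (SE), with an adjusted p of 0.0879. Glul, which turns glutamate into glutamine, averaged 143 ± 18.5 CPM in P10 EV and 225 ± 39.8 CPM in P10 PBS cells (SD, n = 4 each, adjusted p = 0.172). The other glutamate transporter, Slc1a3, averaged 1413 ± 123 CPM in P10 EV and 2052 ± 425 CPM in P10 PBS cells (SD, n = 4 each, adjusted p = 0.232), and P10 PBS replicate 2 at 1425 CPM lay within the range of the P10 EV libraries. Fgfr3, a receptor for fibroblast growth factors, averaged 95.7 ± 13.2 CPM in P10 EV and 148 ± 25.7 CPM in P10 PBS cells (SD, n = 4 each, adjusted p = 0.186).

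Gfap, Aqp4 and S100b, which are often used to mark astrocytes, did not move together. Gfap, the intermediate filament protein, had 5.96, 6.29, 19.9 and 5.96 CPM in P10 EV libraries, against 32.7, 5.04, 4.11 and 4.13 CPM in P10 PBS libraries. Its highest value was in replicate 3 in P10 EV and in replicate 1 in P10 PBS cells, and the fold change of -0.29 ± 0.72 (SE) had an adjusted p of 0.890. Aqp4, the water channel of astrocytes, had a log2 value of -0.14 ± 0.30 (SE, adjusted p = 0.879). S100b, a calcium-binding protein, was lower in each culture, with 20.2, 23.4, 14.1 and 13.7 CPM in P10 EV and 71.8, 35.7, 29.3 and 28.0 CPM in P10 PBS libraries (adjusted p = 0.210 in edgeR). Aldh1l1, another astrocyte marker, was also lower in each culture, at 308, 253, 370 and 275 CPM in P10 EV libraries. Its P10 PBS libraries had 443, 299, 464 and 507 CPM. So was Gja1, at 153, 133, 143 and 118 CPM in P10 EV and 290, 163, 175 and 190 CPM in P10 PBS libraries.

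**Figure D3:**
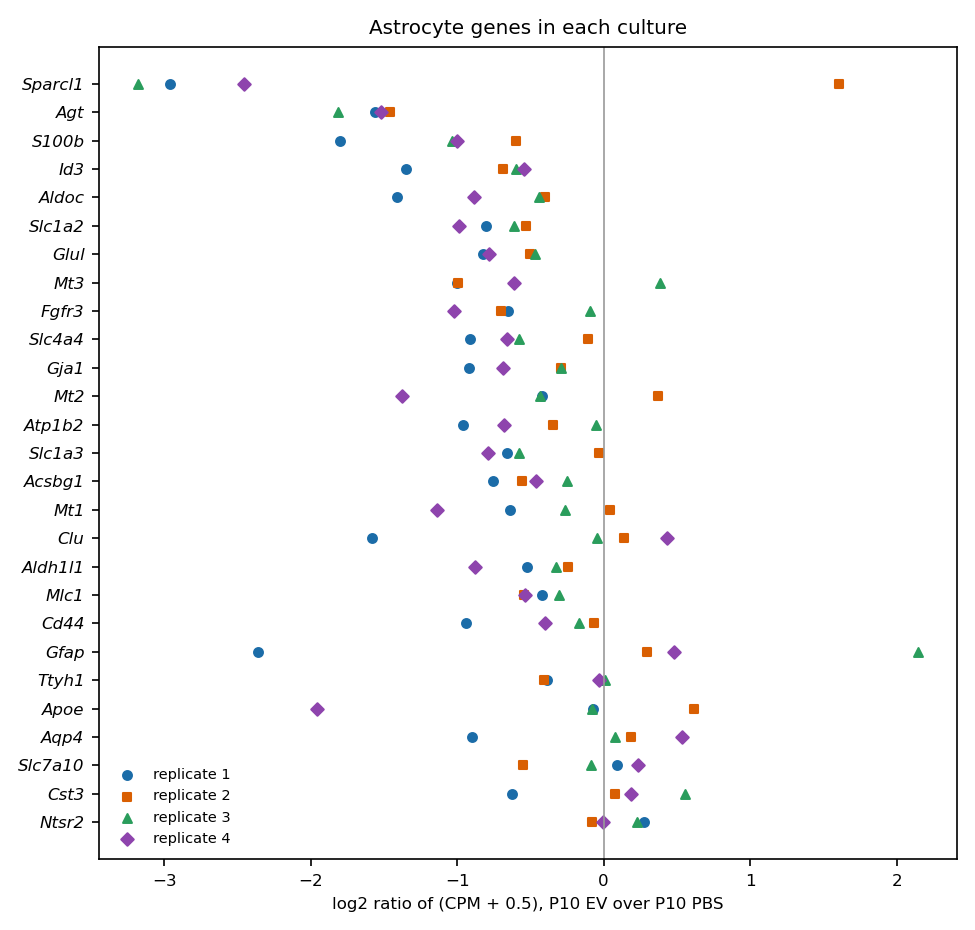
Log2 ratio of (CPM + 0.5) of P10 EV over P10 PBS (horizontal axis) in each of the 4 culture codes for the 27 astrocyte genes tested, ordered by the fold change of the fit. For 15 genes all 4 symbols lie left of 0, while Gfap, Sparcl1, Clu and Apoe spread to both sides.

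The medians of other lineages lay nearer to 0. Over 27 neural stem cell genes the median was -0.08 (0.05 in limma-trend), over 27 genes of the neuronal lineage 0.07 and over 21 genes of the oligodendrocyte lineage 0.04, and edgeR called none in any of these lists, with 5, 2 and 7 at an unadjusted p under 0.05, against 12.9% of all genes. By DESeq2 none of the stem cell genes passed, Myt1 was higher and Prox1 lower among the neuronal genes, and 4 oligodendrocyte genes were higher (Pdgfra, Sox10, Ugt8a and Zfp488) and 1, Bcas1, lower, against 0.783% higher and 1.51% lower of all genes. Single genes still differed in each culture. Pdgfra, the receptor that marks oligodendrocyte precursors, had 24.3, 25, 63.3 and 58.9 CPM in P10 EV libraries, against 13.7, 20.1, 16.2 and 19.5 CPM in P10 PBS libraries, without overlap (log2 of 1.3 ± 0.33, adjusted p = 0.190). Sox10, a factor of the oligodendrocyte lineage, had 7.08, 3.94, 18.9 and 9.66 CPM in P10 EV libraries, against 1.84, 2.93, 3.17 and 5.65 CPM in P10 PBS libraries (log2 of 1.53 ± 0.48, adjusted p = 0.258). It was higher in each culture, though P10 EV replicate 2 lay within the range of the P10 PBS libraries, and both genes were added here after their values had been seen. Ugt8a, an enzyme of myelin lipid synthesis, had 10.8, 7.71, 12.7 and 22.6 CPM in P10 EV libraries, against 3.75, 4.49, 6.07 and 6.74 CPM in P10 PBS libraries (log2 of 1.36 ± 0.33, adjusted p = 0.186). Bcas1, a marker of oligodendrocytes that begin to make myelin, went the other way, with 31.8, 37.1, 21.9 and 29.1 CPM in P10 EV libraries and 49.2, 67.0, 50.9 and 47.9 CPM in P10 PBS libraries (log2 of -0.84 ± 0.17, adjusted p = 0.162). For Ugt8a and Bcas1 the groups did not overlap. Prox1, a factor of dentate granule neurons, averaged 57.1 ± 2.23 CPM in P10 EV and 76.2 ± 8.67 CPM in P10 PBS cells (SD, n = 4 each, adjusted p = 0.186). Cspg4 and Msi2 of the stem cell list had log2 values of 0.58 ± 0.19 and -0.25 ± 0.09 (SE), and Gap43, a growth cone protein, one of 0.38 ± 0.18 (SE). Cspg4 is also on the oligodendrocyte list, and it was higher in each culture, though the groups overlapped.

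Genes of the mitochondrial respiratory chain were slightly lower in P10 EV cells, in a narrow band. Of 77 tested, 72 had a log2 value below 0 with a median of -0.27, and 44 were lower in all 4 cultures, where the share over all genes is 12.4%. The groups did not overlap for 10, all lower in P10 EV cells, against 3.84% of all genes. EdgeR called none, with 24 lower at an unadjusted p under 0.05 against 7.35% of all genes, and DESeq2 called 1 gene, Sdhb, lower, where it called 1.51% of all genes lower. Sdhb, the iron-sulfur subunit of succinate dehydrogenase, had 120, 116, 113 and 101 CPM in P10 EV libraries, against 172, 148, 148 and 140 CPM in P10 PBS libraries. In both groups replicate 1 was the highest, and the fold change was -0.44 ± 0.10 (SE, adjusted p = 0.179). Ndufc2 of complex I and Uqcrfs1 of complex III had log2 values of -0.41 ± 0.12 and -0.30 ± 0.10 (SE), and Atp5b, the catalytic subunit of ATP synthase, averaged 1532 ± 176 CPM in P10 EV and 1828 ± 235 CPM in P10 PBS cells (SD, n = 4 each). The culture medians were -0.36, -0.21, -0.11 and -0.28, and without P10 PBS replicate 1, where the list was highest, the median of the fit was -0.16. Of the 13 genes coded by the mitochondrial genome 11 were below 0, with a median of -0.18 and 1 lower in all 4 cultures.

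Glycolytic enzymes and targets of HIF also lay below 0, but these lists differed between cultures. All 21 glycolytic genes tested had negative log2 values, with a median of -0.59, and 25 of 26 HIF targets did, with a median of -0.79. Of the glycolytic genes 5 (23.8%) and of the HIF targets 3 (11.5%) were lower in all 4 cultures, against 12.4% of all genes. In replicate 2 both lists went the other way: the culture medians of the glycolytic genes were -0.39, 0.39, -0.52 and -1.49, and those of the HIF targets -0.12, 0.76, -0.76 and -1.63. The summed level of the HIF targets was 1037, 1595, 1718 and 1133 CPM in P10 EV libraries, against 1127, 957, 3077 and 4311 CPM in P10 PBS libraries. The P10 PBS libraries thus spread far more than the P10 EV libraries, with replicates 3 and 4 high. Without P10 PBS replicate 4 the medians were -0.30 for the HIF targets and -0.34 for glycolysis, and without both libraries of replicate 4 they were -0.23 and -0.21. With the block the median of the HIF targets was -0.51, and with the block and without replicate 4 the medians were -0.05 for the HIF targets and -0.16 for glycolysis. The largest shifts were -1.04 for the HIF targets without P10 PBS replicate 2 and -0.83 for glycolysis without both libraries of replicate 2.

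Within these lists, Adm, the secreted peptide adrenomedullin, was lower in each culture, with 27.5, 24.9, 26.3 and 35 CPM in P10 EV libraries, against 67.7, 33.9, 58.6 and 82.1 CPM in P10 PBS libraries. P10 EV replicate 4 was just above P10 PBS replicate 2, and the fold change of -1.09 ± 0.24 (SE) had an adjusted p of 0.172 in edgeR. Ddit4, a stress-induced brake on mTOR, was also lower in each culture, and averaged 57.0 ± 7.27 CPM in P10 EV and 103 ± 46.5 CPM in P10 PBS cells (SD, n = 4 each, adjusted p = 0.269). Pfkm, a phosphofructokinase, averaged 124 ± 15.5 CPM in P10 EV and 178 ± 26.7 CPM in P10 PBS cells (SD, n = 4 each, adjusted p = 0.190), without overlap of the groups. Pkm, pyruvate kinase, had 1783, 1954, 1895 and 1204 CPM in P10 EV libraries, against 2787, 1920, 2421 and 2835 CPM in P10 PBS libraries, so that replicate 2 was level and the others lower. Epas1, which encodes the HIF-2 alpha subunit, had 30.3, 40.7, 42.0 and 28.0 CPM in P10 EV libraries, against 89.3, 39.3, 69.9 and 102 CPM in P10 PBS libraries (adjusted p = 0.186). EdgeR called none of the 26 HIF targets and 21 glycolytic genes, with 4 and 9 lower at an unadjusted p under 0.05 (7.35% of all genes), and DESeq2 called 1 of each list lower, Adm and Pfkm (1.51% of all genes). Of 13 oxygen sensors and HIF subunits 10 were below 0, with a median of -0.21 (-0.36 without P10 PBS replicate 2 and -0.07 with the block and without replicate 4). Among these DESeq2 called Epas1 lower, against 1.51% of all genes.

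**Figure D4:**
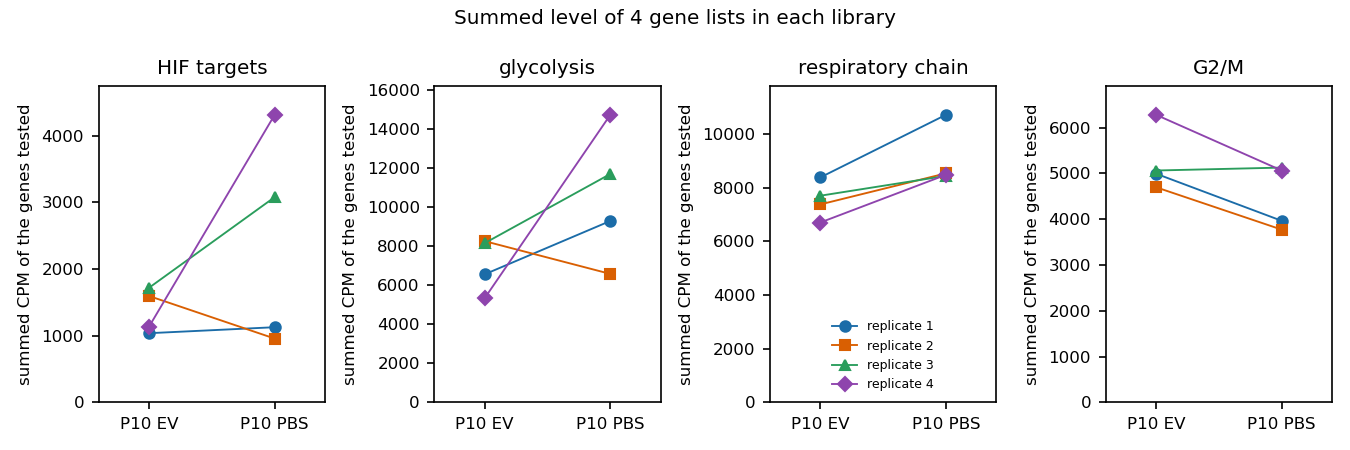
Summed CPM (vertical axis, from 0) of the tested genes of 4 lists in each P10 EV and P10 PBS library; lines join the libraries of a culture code. HIF targets and glycolysis are lower on the P10 EV side in replicates 1, 3 and 4 and higher there in replicate 2, while the respiratory chain is lower on the P10 EV side in all 4 cultures.

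Genes of the cell cycle lay slightly above 0. Of 46 genes of S phase, when DNA is copied, 41 had a log2 value above 0 with a median of 0.17, 15 were higher in all 4 cultures, against 12% of all genes, and the groups did not overlap for 10, against 3.86% of all genes. Of 42 genes of G2 and mitosis 41 were above 0 with a median of 0.21, 19 were higher in all 4 cultures and 3 did not overlap. EdgeR called none, with 11 and 6 higher at an unadjusted p under 0.05 (5.51% of all genes), and DESeq2 called Pole and Tyms of the S phase list higher (0.783% of all genes). Tyms, thymidylate synthase, had 56.2, 55.7, 57.0 and 64.9 CPM in P10 EV libraries, against 46.0, 46.8, 46.5 and 43.2 CPM in P10 PBS libraries. Both groups were tight, with a gap between them, and the fold change was 0.36 ± 0.09 (SE, adjusted p = 0.186). Pole, a DNA polymerase of the leading strand, averaged 171 ± 6.63 CPM in P10 EV and 140 ± 8.42 CPM in P10 PBS cells (SD, n = 4 each, adjusted p = 0.225). Tipin, a replication fork protein, and Rrm1, a subunit of ribonucleotide reductase, had log2 values of 0.35 ± 0.11 and 0.22 ± 0.09 (SE) and did not overlap between the groups.

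Among genes of mitosis, Birc5 (survivin) averaged 78.0 ± 6.18 CPM in P10 EV and 64.6 ± 4.81 CPM in P10 PBS cells (SD, n = 4 each, adjusted p = 0.303). Kif2c, a kinesin of the spindle, and Cdc25c, a phosphatase that starts mitosis, were higher in each culture, with adjusted p-values of 0.311 for both. Top2a, a topoisomerase of dividing cells, had 599, 619, 603 and 821 CPM in P10 EV libraries, against 451, 432, 707 and 698 CPM in P10 PBS libraries, and was lower with vesicles in replicate 3. The G2 and mitosis list as a whole had culture medians of 0.31, 0.29, 0.02 and 0.20, and the S phase list 0.05, 0.17, 0.15 and 0.25. The median of the G2 and mitosis list was 0.13 without P10 EV replicate 4 and 0.12 without P10 PBS replicate 2, and that of the S phase list 0.11 without replicate 4.

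Genes of lysosomes, of defence against oxidants and of antigen display lay below 0. Of 38 genes of autophagy and the lysosome 34 were below 0, with a median of -0.20, and 19 were lower in all 4 cultures, against 12.4% of all genes. Lamp1, the main membrane protein of lysosomes, had 491, 478, 475 and 434 CPM in P10 EV libraries, against 694, 618, 555 and 540 CPM in P10 PBS libraries. The groups did not overlap, and the fold change was -0.36 ± 0.10 (SE, adjusted p = 0.228). Psap, the precursor of saposins, and Ctsa, a protease, had log2 values of -0.47 ± 0.14 and -0.42 ± 0.11 (SE). Of 25 antioxidant and NRF2 genes 22 were below 0, with a median of -0.24, and 11 were lower in all 4 cultures, against 12.4% of all genes. Gstm1, which fell in the blocked fit, was among them. Sod3, the secreted superoxide dismutase, had 6.79, 5.53, 3.53 and 1.57 CPM in P10 EV libraries, against 29.6, 12.8, 9.61 and 8.40 CPM in P10 PBS libraries. It was highest in replicate 1 and lowest in replicate 4 in both groups, and its fold change was -1.80 ± 0.50 (SE, adjusted p = 0.223, or 0.0618 with the block). Slc7a11, the cystine transporter, averaged 23.2 ± 4.31 CPM in P10 EV and 44.0 ± 12.8 CPM in P10 PBS cells (SD, n = 4 each, adjusted p = 0.186).

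All 14 genes of MHC class I presentation that were tested lay below 0, with a median of -0.38, and 5 were lower in all 4 cultures, against 12.4% of all genes. Psmb10, a subunit of the immunoproteasome, averaged 9.89 ± 1.29 CPM in P10 EV and 14.2 ± 1.70 CPM in P10 PBS cells (SD, n = 4 each, adjusted p = 0.241), and Tapbp, which loads peptides, had a log2 value of -0.39 ± 0.12 (SE). Over the lysosome, antioxidant and MHC lists edgeR called none without the block, with 12, 8 and 5 genes lower at an unadjusted p under 0.05 (7.35% of all genes), and DESeq2 called 2, 3 and 0 lower (1.51% of all genes). The median of the antioxidant genes was -0.15 without P10 PBS replicate 1. That of the MHC class I genes was -0.25 without P10 EV replicate 4, -0.18 in limma-trend on the deposited FPKM and -0.56 without both libraries of replicate 2, and that of the lysosome genes -0.13 in limma-trend.

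A list of ERK feedback genes, which growth factors such as EGF and bFGF in the medium induce, and of receptors such as Fgfr2 and Fgfr3 also lay lower. Of 20 tested 18 were below 0, with a median of -0.29, and 8 were lower in all 4 cultures, against 12.4% of all genes. Fgfr2, a receptor for fibroblast growth factors, had 14.5, 14, 13.9 and 9.28 CPM in P10 EV libraries, against 29.3, 26.4, 20.0 and 18.3 CPM in P10 PBS libraries. The groups did not overlap (log2 of -0.87 ± 0.20, adjusted p = 0.184). Dusp4, a phosphatase that switches ERK off, averaged 18.6 ± 1.80 CPM in P10 EV and 35 ± 10.3 CPM in P10 PBS cells (SD, n = 4 each, adjusted p = 0.185). Of 25 Wnt genes 19 were below 0 with a median of -0.21 and 7 were lower in all 4 cultures, against 12.4% of all genes. The receptors Fzd8 and Lgr4 had log2 values of -0.45 ± 0.14 and -0.32 ± 0.11 (SE) beside Wls. EdgeR called none of either list, with 8 and 6 at an unadjusted p under 0.05 (12.9% of all genes), and DESeq2 called 3 and 1 lower (1.51% of all genes). Those of the ERK list were Dusp4 and the receptors Fgfr2 and Fgfr3, and Fgfr3 is also on the astrocyte list. The median of the ERK feedback genes was -0.18 without replicate 1 and in limma-trend, and that of the Wnt genes was -0.13 without P10 PBS replicate 3 and -0.11 in limma-trend.

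All 26 genes of cholesterol synthesis and all 23 of the amino acid response to ATF4 had log2 values below 0, with medians of -0.30 and -0.26, yet 1 and 2 were lower in all 4 cultures, against 12.4% of all genes. Replicate 4 led both lists, with culture medians of -0.76 and -0.92, and in replicate 1 the medians were 0.30 and 0.12. Over all settings the median of the fit lay between -0.50 and -0.16 for cholesterol synthesis and between -0.42 and -0.07 for the ATF4 response, with the values nearest to 0 with the block and without replicate 4. Hsd17b7 and Tm7sf2 of sterol synthesis had adjusted p-values of 0.309 and 0.311. Slc3a2, the shared chain of amino acid transporters, was lower in each culture, with 200, 189, 208 and 133 CPM in P10 EV libraries and 257, 195, 259 and 294 CPM in P10 PBS libraries (adjusted p = 0.303). EdgeR called none of either list, with 4 and 5 lower at an unadjusted p under 0.05 (7.35% of all genes), and DESeq2 called 0 and 1 lower (1.51% of all genes).

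**Figure D5:**
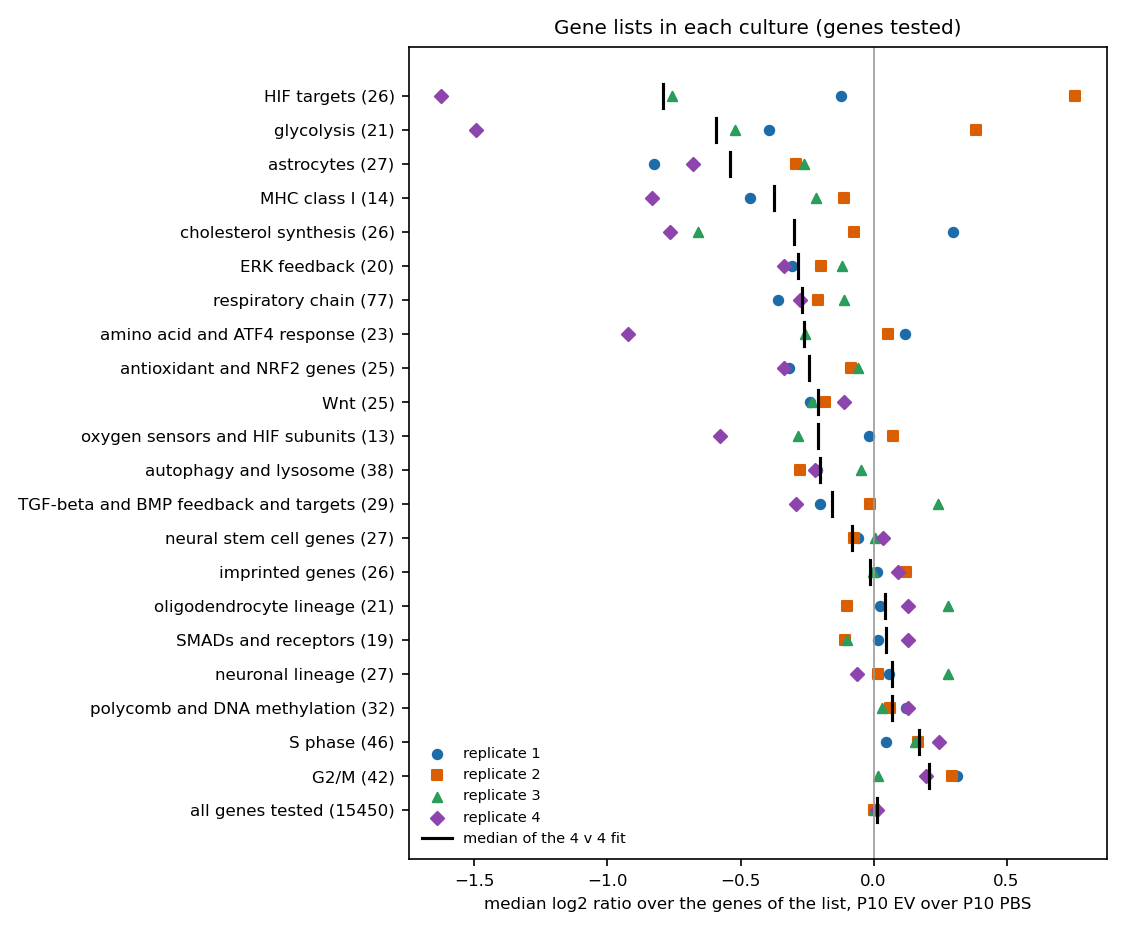
Median log2 ratio of P10 EV over P10 PBS (horizontal axis) over the tested genes of 21 lists and over all genes, by culture code (symbols), with the median of the fit of 4 against 4 libraries as a bar; the number of genes tested is in brackets. The 4 symbols of the astrocyte and respiratory chain lists lie left of 0, those of the S phase and G2 and mitosis lists right of 0, and those of HIF targets and glycolysis on both sides.

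Imprinted genes, which are expressed from the copy of 1 parent, did not shift as a list but held several genes with higher levels. Of 26 tested, 12 were above 0 and 14 below, and the median was -0.01 (between -0.06 and 0.10 over all settings). In all 4 cultures 7 were higher and 1 lower, against 12% and 12.4% of all genes. Ndn (chromosome 7, 62348277 to 62349928), which encodes necdin, had 54.8, 54.1, 83.1 and 80.1 CPM in P10 EV libraries, against 33.2, 35.2, 39.7 and 38.6 CPM in P10 PBS libraries and 147 ± 14.4 CPM at P2 (SD, n = 4). Each P10 EV library lay above all P10 PBS libraries, a separation for which Ndn was picked, and below all P2 libraries. The fold change of 0.89 ± 0.16 (SE) had an adjusted p of 0.110, or 0.0618 with the block. Mkrn3, its neighbour on chromosome 7 (62417593 to 62420139), averaged 9.68 ± 0.351 CPM in P10 EV and 5.88 ± 1.36 CPM in P10 PBS cells (SD, n = 4 each, adjusted p = 0.191). Grb10, an adaptor that restrains insulin receptors, was low, with 0.944, 1.01, 4.03 and 4.14 CPM in P10 EV libraries and 0.614, 0.366, 0.373 and 0.797 CPM in P10 PBS libraries (adjusted p = 0.222). Its difference lay mostly in replicates 3 and 4, and at P2 Grb10 had 67.5 ± 42.8 CPM (SD, n = 4). EdgeR called none of the 26, with 7 at an unadjusted p under 0.05 (12.9% of all genes). DESeq2 called 3 higher (Grb10, Mkrn3 and Ndn) and 1, Peg10, lower, against 0.783% higher and 1.51% lower of all genes.

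Of 32 genes of polycomb complexes and DNA methylation 22 were above 0, with a median of 0.07 (0.02 without P10 EV replicate 4), and 8 were higher in all 4 cultures, against 12% of all genes. Dnmt1, which copies DNA methylation after replication, averaged 459 ± 27.3 CPM in P10 EV and 378 ± 23.4 CPM in P10 PBS cells (SD, n = 4 each, adjusted p = 0.254), without overlap. Phc3, a polycomb subunit, had 43.6, 56.2, 52.8 and 57.7 CPM in P10 EV libraries, against 125, 134, 132 and 50.3 CPM in P10 PBS libraries. Replicates 1, 2 and 3 were lower and replicate 4 was not (adjusted p = 0.190). EdgeR called none, with 5 at an unadjusted p under 0.05 (12.9% of all genes). DESeq2 called Pcgf2 higher and Phc3 lower, against 0.783% higher and 1.51% lower of all genes.

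Transcripts that mark embryonic stem cells, the source of the vesicles, were scarce in both late groups. Of 25 such genes, 13 had no read in any P10 EV library and 16 none in any P10 PBS library, and 4 were high enough to be tested. Pou5f1, a master factor of pluripotency, had 3 reads over the 4 P10 EV libraries and 1 over the 4 P10 PBS libraries. Nanog had 29 and 13 reads in the same groups, with 0.649, 0.0838, 0.575 and 0.627 CPM in P10 EV libraries and 0.683, 0.0916, 0.0933 and 0.0724 CPM in P10 PBS libraries. Zfp42, Dppa3 and Sall4 had no read in either group. The 4 tested genes, Esrrb, Klf4, Klf2 and Trim71, had log2 values between -0.59 and -0.11.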

How the data were processed

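The authors deposited raw counts per gene and FPKM for each library, per the file headers, in a table of 34745 genes. HISAT2 2.0.4 and StringTie 1.3.0 are named in the submitters' processing notes. The genome build, the counting program and its use of strand were not given in the sources used here, so overlapping and antisense genes cannot be told apart and coordinates are printed as deposited. All other values were computed here from the counts with edgeR 4.0.16 in R 4.3.3. Genes were kept by filterByExpr (minimum count 10), libraries were scaled by TMM factors over all 12 libraries (0.938 to 1.04), and a quasi-likelihood fit with 1 mean per group was made on the 8 late libraries. Benjamini-Hochberg adjustment ran over the 15450 genes tested. Culture ratios are log2 of (CPM + 0.5).

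Whether the replicate numbers pair the libraries was checked from deviations from the group means: the correlations of libraries with the same number were 0.326, 0.139, 0.117 and 0.217, each over 0.1, so the numbers were taken as pairs and blocked values are given where they change a call. For 3 of the 4 P10 EV libraries the best match among P10 PBS libraries had the same number. P10 EV replicate 3 correlated more with P10 PBS replicate 4 (0.146) than with its own partner, and P10 EV replicate 4 had 0.157 with P10 PBS replicate 3. Both of these values are also over 0.1, so this check by itself cannot settle the pairing. The library names carry the same code by number, and Xist marked the same numbers in both groups. The main fit was set without the block, and the block was an alternative. Alternatives were the block, all 12 libraries in 1 fit, DESeq2 1.42.0 (size factors and Wald test), limma 3.58.1 (voom, and a trend fit on log2 of the deposited FPKM + 1), other TMM factors, no filter and leaving out libraries or replicate numbers. Blocked fits without a replicate number were chosen after seeing the data. The edgeR fits of the 8 late libraries with and without the block were tested on simulated data, the other fits were not. The named genes are the called ones, the 12 with the smallest p in each direction whose groups do not overlap (with 5 CPM or more in the higher group), up to 6 per direction called with the block, the genes of the title, for each list up to 3 with the smallest p and up to 2 of the most expressed, and markers that define a cell type. The members and lists were chosen with earlier results of these data known.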

Additional observations from a re-analysis of the deposited data

Results flagged for a closer look

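In 12 of 199 groups of 4 libraries examined, the highest or lowest library stood apart from the other 3 by more than Dixon's 95% critical value for the gap over the range, which chance does in about 1 group of 20. In P10 EV libraries the highest value stood apart for St6galnac5 (13.7 CPM), Egln3 (52.2 CPM), Tyms (64.9 CPM) and Top2a (821 CPM). The lowest stood apart there for Pole (161 CPM) and Fgfr2 (9.28 CPM). In P10 PBS libraries the highest value stood apart for Gstm1 (132 CPM), Id3 (62.2 CPM), Atp5b (2177 CPM), Psap (868 CPM) and Bcas1 (67.0 CPM), and the lowest for Phc3 (50.3 CPM). For Gstm1, Id3, Atp5b and Psap the library was P10 PBS replicate 1, which also holds liver transcripts, and the part of these in the result was not tested.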

How the results depend on the processing

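The count of 2 called genes was 17 with the replicate block, 0 with all 12 libraries in 1 edgeR fit (1165 at an unadjusted p under 0.05), 0 with the replicate block in all 12 libraries (1155 at an unadjusted p under 0.05) and 354 with the DESeq2 Wald test, and the cause was not tested. It was 2 with DESeq2 size factors or TMM factors of the 8 late libraries, and 3 with limma-voom, limma-trend or no filter. Leaving out libraries or replicate numbers gave 0 to 64 calls, most without P10 PBS replicate 2, and 0 to 3 without a replicate number, with 1303 to 2325 genes at an unadjusted p under 0.05. The blocked fits without a replicate number gave 0 to 44 calls. Beyond the calls given with it in the report, the replicate block changed no call of a named gene. Signs turned for Smad2 with the block in all 12 libraries (-0.0026) and for Smad7 in limma-trend (0.0054). Without 1 library, log2 values ran from -0.034 to 0.040 for Smad2, -0.27 to 0.0028 for Smad3, -0.058 to 0.086 for Smad4, 0.0090 to 0.21 for Smad5, -0.12 to 0.14 for Smad7 and -0.13 to 0.17 for Sirt1. Without a replicate number they ran from -0.039 to 0.055 for Smad2, -0.078 to 0.11 for Smad4, -0.019 to 0.25 for Smad5, -0.21 to 0.23 for Smad7 and -0.15 to 0.13 for Sirt1. With the block and without a replicate number they ran from -0.038 (-0.034 without replicate 1) to 0.058 for Smad2, -0.074 to 0.12 for Smad4, -0.010 to 0.25 for Smad5, -0.24 to 0.24 for Smad7 and -0.15 to 0.10 for Sirt1. Among the 91 genes followed through every setting, no other changed sign. Further genes named above, such as Gfap, Aqp4, S100b, Pdgfra and Sox10, were not followed through the settings. Genes under the filter on low counts, Smad6 among them, were too shallow to test.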

Other observations

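Other lists belong to no comparison above, and edgeR called none of their genes. Of 76 ribosomal protein genes, 54 had a log2 value above 0 with a median of 0.06, and 10 (13.2%) were higher in all 4 cultures, against 12% of all genes. Of 17 genes that act as brakes in senescence 10 were above 0, with a median of 0.07, and 5 (29.4%) were higher in all 4 cultures, against 12% of all genes. By edgeR 4 of these brakes were higher and 0 lower at an unadjusted p under 0.05, against 5.51% and 7.35% of all genes. Of 44 genes of the extracellular matrix 29 were below 0, with a median of -0.17, and 12 (27.3%) were lower in all 4 cultures, against 12.4% of all genes. Of these matrix genes DESeq2 called 1 higher and 4 lower, against 0.783% higher and 1.51% lower of all genes. Of 17 genes of the senescence-associated secretory phenotype that were tested 12 were below 0, with a median of -0.30, and 4 (23.5%) were lower in all 4 cultures, against 12.4% of all genes. By edgeR 4 of these secretory genes were lower and 0 higher at an unadjusted p under 0.05, against 7.35% and 5.51% of all genes. DESeq2 called Igfbp2 and Igfbp4 of this list lower, against 1.51% of all genes. Over genes, the fold change had a Spearman correlation of -0.0015 with gene length, as a description over 15450 genes that are not independent.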
